A study of Bos taurus and Sus scrofa with 10 samples.

Results

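The step from the 2-4 cell embryo to the 8-16 cell embryo of the pig (Sus scrofa) was examined by setting the 8-16 cell library against the 2-4 cell library, gene by gene. The members were all rows of the pig expression table with at least 1 RPM (reads per 1000000 reads of the library) in either library, and 12153 of the 21867 rows met this rule. The series sequenced RNA of pig and cow oocytes, of embryos with 2-4 and with 8-16 cells, of morulae (balls of cells that compact) and of blastocysts (the hollow form, with an outer trophectoderm and an inner cell mass). A library was made once for each of the 5 stages in each species, 10 in all, so no difference described here has a replicate check and no test over samples was possible. The series title places these libraries in work on DNA methylation before implantation. Both groups of the step are untreated embryos as far as the labels say. Breed, the way the embryos were produced, the number of embryos in a library and whether they were pooled are not given in the sources used here.

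Early cleavage divisions run on RNA and protein that the oocyte stored before fertilisation. The embryo's own genome is then switched on in waves, while stored oocyte RNAs are deadenylated and degraded. The stage at which this handover takes place differs among mammals, and in the pig genome activation is placed in the early cleavage stages.

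The 2-4 cell library held 4138616 reads and the 8-16 cell library 3166110 reads, of which 83.9% and 81.3% fell in gene rows. A library with 0 reads of a gene still allows up to 3 reads, which is 0.725 RPM at the 2-4 cell stage and 0.948 RPM at the 8-16 cell stage. Mitochondrial transcripts took 12.4% and 10.9% of the reads, and the 50 highest genes 22.1% and 18.9%. Among the genes just inside the 1 RPM rule were 143 with 5 reads (1.21 RPM) at the 2-4 cell stage and 343 with 4 reads (1.26 RPM) at the 8-16 cell stage. Just outside were 171 with 4 reads (0.967 RPM) and 348 with 3 reads (0.948 RPM). Of the 9714 rows left out, 7408 had 0 reads in both libraries. Reads were amplified by PCR with no molecular identifiers described, so every interval below covers counting error only. In these bulk libraries, fewer cells of a type and less RNA per cell cannot be told apart, and RPM values are shares of a library, not amounts per embryo.

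The stage labels were checked against defining markers. Over the 5 stages, from oocyte to blastocyst, 9 oocyte markers summed to 7653, 4218, 3820, 258 and 23.6 RPM. 5 markers of the blastocyst epithelium summed to 0, 6.52, 23.7, 240.1 and 6754 RPM in the same order. The keratin gene KRT8 and the trophectoderm factor CDX2 had 0 reads in both libraries of the step. Both libraries thus carried high oocyte transcripts. KRT8, KRT18 and CDX2 had at most 2 reads in either library. GATA6 gave 4.83 and 19.6 RPM of the blastocyst marker sums at the 2-4 and 8-16 cell stages. The 5 markers do not cover all trophectoderm factors: TFAP2C, described below, is not among them and was read in both libraries. Of 22 genes that mark cumulus and granulosa cells, which surround the oocyte, 11 had 0 reads at the 2-4 cell stage and 7 at the 8-16 cell stage. Their sum was 150 RPM and then 237 RPM, mostly from VCAN (77.8 and 138.7 RPM) and STAR (27.3 and 39.8 RPM), while INHA had 0 reads in both and CYP11A1 1 read in each. Of 14 sperm markers, 9 had 0 reads in each library, the protamine genes PRM1 and PRM2 among them, and the sum was 30.7 RPM and then 42.6 RPM. The part of cumulus cell or sperm RNA in the results below was not tested.

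A change is the difference of log2(RPM + 1), 8-16 cell minus 2-4 cell, and a gene is said to have risen or fallen when that difference reached 2, a 4-fold difference on this scale. Changes of low genes come out smaller on this scale than as plain ratios. The step was dominated by rises. 592 of the 12153 genes changed (4.87%), of which 526 rose (4.33%) and 66 fell (0.543%), so rises made up 88.9% of the changes. At a difference of 1 or more the counts were 2454 higher and 632 lower. Ratios of single genes are given below with their counting interval (95%, exact binomial on the reads of both libraries), which compares these 2 libraries and not the stages. The whole distribution also moved: the median change over all genes was 0.21, and 61.2% of genes had a change above 0. Forcing both libraries to 1 shared distribution (quantile normalisation) shifted the median by -0.22 and gave 294 genes higher and 153 lower, 65.8% of changed genes higher. Centring the changes on their median gave 367 higher and 105 lower, 77.8% higher.

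**Figure D1:**
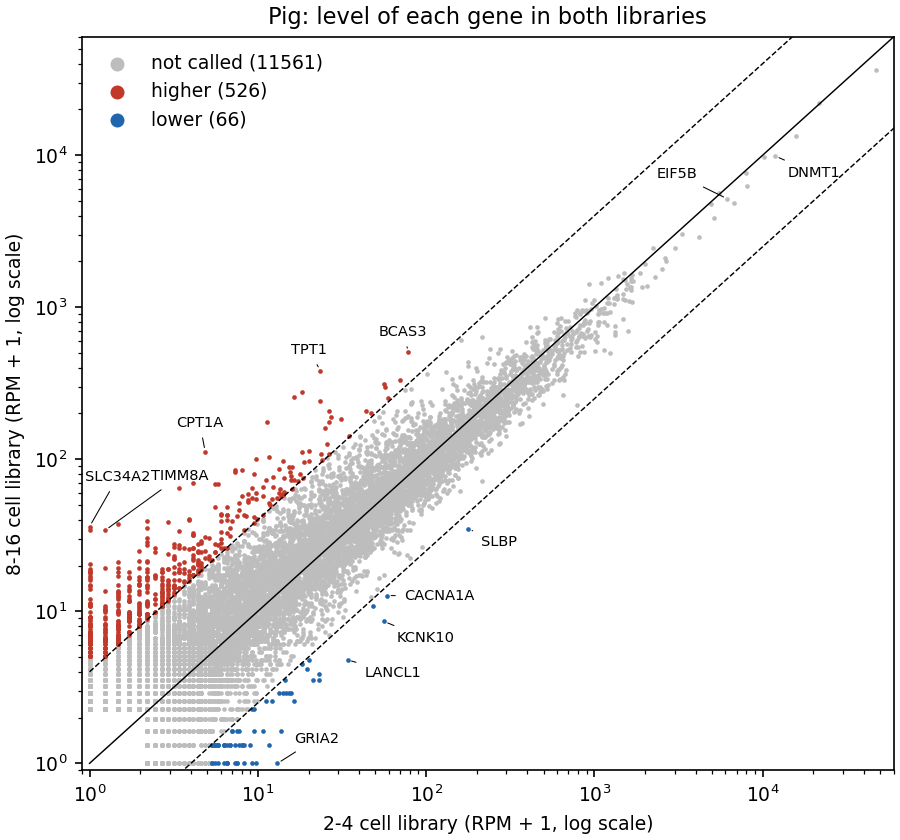
Level of each of the 12153 genes in the 2-4 cell library (x axis) and the 8-16 cell library (y axis), both as RPM + 1 on log axes, with genes at 0 reads drawn at 1. Red points rose and blue points fell past the threshold of 2, the solid line marks equal levels and the dashed lines a 4-fold difference; the 526 risen genes have a median 2-4 cell level of 1.21 RPM and reach 77.3 RPM in BCAS3, and SLBP is the highest of the 66 fallen genes.

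The genes that rose were mostly rare or absent before the step. In the 2-4 cell library 97 of the 526 had 0 reads, 134 had 1 to 3 reads and 295 had more. Their median level over the 5 stages was 1.18, 1.21, 12.3, 32.5 and 19.2 RPM. At the 8-16 cell stage 160 of them reached 20 RPM and 25 reached 100 RPM. 426 carried a gene symbol and 100 an identifier only.

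The largest rise among named genes was that of SLC34A2 (chromosome 8, 19493576 to 19510252), a sodium-dependent phosphate transporter. It had 0 reads in the oocyte and 2-4 cell libraries, then 35.1, 495.9 and 10.2 RPM in the next 3 stages. It was thus at least 48.4-fold higher in the 8-16 cell library, and it peaked in the morula. TIMM8A (chromosome X, 82978130 to 82981019), a chaperone of mitochondrial protein import, had 0.888, 0.242, 33.2, 574.5 and 243.2 RPM over the 5 stages. The single read at the 2-4 cell stage gives a ratio of 137 with a counting interval from 24.1 to 5472. CPT1A (chromosome 2, 4233109 to 4296733), which lets long-chain fatty acids into mitochondria, had 0, 3.87, 111, 420.9 and 7.51 RPM. Its ratio across the step was 28.8 (17.5 to 50.9), and its level was high only at the 8-16 cell stage and in the morula among the 5 libraries.

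TPT1 (chromosome 11, 21929221 to 21933199), which encodes a translationally controlled growth-related protein, had 22.5 RPM at 2-4 cells, less than in the oocyte, then 382, 2807 and 3724 RPM in the next 3 stages. The ratio across the step was 17.0 (13.8 to 21.2). RACK1, a scaffold protein of the small ribosomal subunit, had 4.44, 0.483, 36.3, 171 and 814 RPM and followed the same order. BCAS3 (chromosome 12, 36920487 to 37475545) reached the highest level of any risen gene, with 32.9, 77.3, 504, 1007 and 197 RPM and a ratio of 6.52 (5.78 to 7.38). FILIP1L and CMSS1 rose from 15.5 to 255 RPM and from 17.4 to 277 RPM, but their spans overlap in the table and their reads may not be separable.

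Solute carriers as a group stood near the background: of 215 compared, 11 rose (5.12%, against 4.33% of all genes) and 1 fell, with a median change of 0.13 against 0.21. Some of them were among the largest rises. The phosphate carrier of mitochondria SLC25A3 had 2.07, 0, 17.1, 271 and 728.5 RPM over the 5 stages, at least 23.5-fold higher across the step. The creatine transporter SLC6A8, whose span overlaps BCAP31, had 0, 0, 18.0, 377 and 757 RPM. Both were highest in the blastocyst, whereas SLC34A2 was highest in the morula. The neural transporter gene SLC6A17 reached 5.37 RPM at the 8-16 cell stage and had 0 reads in the morula. PDXK, which makes the active form of vitamin B6, went from 0 reads to 17.4 RPM, and ETNPPL, an enzyme of phosphoethanolamine breakdown, from 1.21 to 34.4 RPM.

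Ribosomal protein genes made the most marked group. Of 44 cytosolic ribosomal protein genes compared, 25 rose and 0 fell, where 4.33% of all genes rose. The median change was 2.26 against 0.21 over all genes. The median level of the 44 over the 5 stages was 6.07, 2.30, 14.2, 87.6 and 462 RPM. The median was thus lowest in the 2-4 cell library. Its summed level across the step went from 277 to 890 RPM. RPL19 of the large subunit (chromosome 12, 23029379 to 23034496) changed most, with 11.5, 2.42, 63.8, 429.9 and 2302 RPM and a ratio of 26.4 (14.1 to 55.9). RPS23 of the small subunit had 2.96, 0, 15.2, 231 and 371 RPM. RPS15A, which began at a higher level, had 34.3, 5.56, 41.7, 414 and 1191 RPM. RPL9 rose from 1.93 to 37.6 RPM, but its span overlaps KLB.

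Not all members took part to the same degree. RPL5, the member with the highest level at the 8-16 cell stage, had 57.0 and then 128 RPM, a change of 1.15. RPS20 was at 25.6 and then 37.0 RPM, a change of 0.51. The lowest change, -0.89, was that of RPLP0 of the ribosomal stalk, chosen after its values had been seen (13.8 and then 6.95 RPM). RPL15 was at 59.0 and then 41.7 RPM. The 8 further ribosomal protein genes in the table stayed under 1 RPM in both libraries. Ribosomal protein genes have many processed copies in the genome, and how reads with several matches were treated is not given in the sources used here, so the level of each gene is uncertain. With a pseudocount of 5 RPM in place of 1, the median change was 1.13 and 6 of the 44 rose, and with quantile normalisation it was 1.87 and 21 rose.

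**Figure D2:**
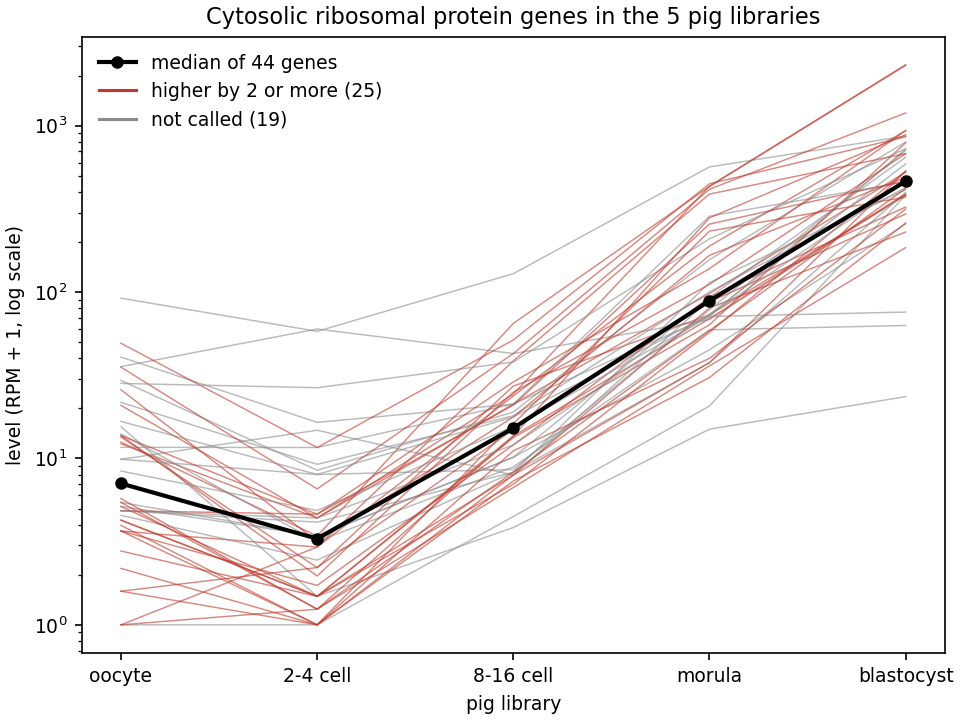
Level of the 44 cytosolic ribosomal protein genes in the 5 pig libraries (x axis), as RPM + 1 on a log axis (y axis), 1 line per gene, red for the 25 genes that rose from the 2-4 to the 8-16 cell library and grey for the 19 others. The black line joins the medians of RPM + 1, which is lowest at the 2-4 cell stage and climbs through the 8-16 cell stage, the morula and the blastocyst.

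Genes that make ribosomes and start translation were also shifted upward, with fewer members past the threshold. Of 102 genes of ribosome biogenesis and the nucleolus, 9 rose (8.82%, against 4.33% of all genes) and 0 fell. The median change was 0.75, against 0.21 over all genes. FBL, the methyltransferase of box C/D snoRNPs, rose from 0.967 to 12 RPM, and TAF1D, a subunit of the RNA polymerase I selectivity factor whose span overlaps CEP295, from 14.98 to 87.8 RPM. URB1, RRP12, RRP36, MRTO4, NOP2, PPAN and TSR2 rose as well. NCL (nucleolin), the highest member at the 8-16 cell stage, was at 510 and then 851 RPM, a change of 0.74. Of 36 translation initiation and elongation factors, 5 rose (13.9%) and 0 fell, with a median change of 0.88. These were EIF3D (1.93 to 18.0 RPM), EIF3A (46.2 to 199.9 RPM) and EIF3I (1.69 to 10.1 RPM) of the scaffold factor eIF3, EEF1B2 (7.73 to 51.2 RPM) of the elongation factor complex and the release factor ETF1 (22.7 to 107 RPM). EIF5B, the most abundant member, was at 6159 and then 5156 RPM.

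Nuclear genes for mitochondrial proteins also held some rises. Of 36 genes of the respiratory chain, 5 rose (13.9%, against 4.33% of all genes) and 0 fell. The median change was 0.86, against 0.21 over all genes. NDUFA13 of complex I went from 0 reads to 15.5 RPM, COX7A2 of complex IV from 0.725 to 15.8 RPM and ATP5A1 of the ATP synthase from 3.14 to 16.4 RPM. COX5B and NDUFB2 rose too. Of 24 genes of mitochondrial protein import, 3 rose (12.5%) and 0 fell, with a median change of 0.79. The 3 were TIMM8A, the outer membrane receptor TOMM20 (7.01 to 56.5 RPM) and TIMMDC1. TOMM7, a small subunit of the same outer membrane complex, was at 54.8 and then 16.4 RPM, a change of -1.68. Of 48 mitochondrial ribosomal protein genes, 3 rose (6.25%: MRPS18C, MRPS18A and MRPS6) and 0 fell, with a median of 0.28, so this list lay near all genes. None of the 31 rows encoded on the mitochondrial genome rose or fell (median 0.05), among them the cytochrome oxidase subunit gene COX1, at 47085 and then 36367 RPM.

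Transcription factors linked to genome activation formed the second group with many rises. Of 38 candidate regulators of genome activation compared, 9 rose (23.7%, against 4.33% of all genes) and 0 fell. The median change was 1.02, against 0.21 over all genes. NR5A2 (chromosome 10, 22727825 to 22866904), an orphan nuclear receptor of early embryos, had 0, 13.0, 95.7, 117 and 4.29 RPM over the 5 stages. Its ratio across the step was 7.33 (5.48 to 9.99). KLF17 (chromosome 6, 167176834 to 167188418), a Krüppel-like factor of early embryos, had 0, 10.1, 72.0, 70.6 and 12.3 RPM, with a ratio of 7.10 (5.09 to 10.1). Both genes were highest at the 8-16 cell stage and in the morula.

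KLF8 had 4.44, 19.1, 113, 93.6 and 43.2 RPM over the 5 stages, and KLF10 0, 3.14, 30.6, 33.3 and 8.04 RPM. KLF13 rose as well. MYC, the growth regulator, had 0, 1.93, 15.2, 5.33 and 2.68 RPM and was highest at the 8-16 cell stage, while its relative MYCN had 0, 2.17, 22.1, 104 and 39.7 RPM. The immediate-early genes FOS and ATF3 went from 0 reads to 13.6 RPM and from 0.967 to 7.58 RPM. The chromatin remodeller CHD1 was at 341 and then 483 RPM, and GABPA at 129 and then 128 RPM. Neither passed the threshold.

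Of 33 pluripotency and lineage transcription factors, 4 rose (12.1%, against 4.33% of all genes) and 0 fell. The median change was 0.49, against 0.21 over all genes. NR5A2 and KLF17 are in this list too. TFAP2C (chromosome 17, 57164371 to 57175315), an AP-2 factor of trophectoderm and early embryos, had 19.8, 30.2, 183, 502 and 346 RPM, with a ratio of 6.05 (4.98 to 7.41). TBX3 rose from 1.69 to 11.4 RPM and continued to 220 RPM in the morula. ESRRB was at 30.4 and then 61.9 RPM, and SALL4 at 89.2 and then 126 RPM. The Hippo pathway coactivator YAP1 was at 291 and then 155 RPM, a change of -0.91.

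**Figure D3:**
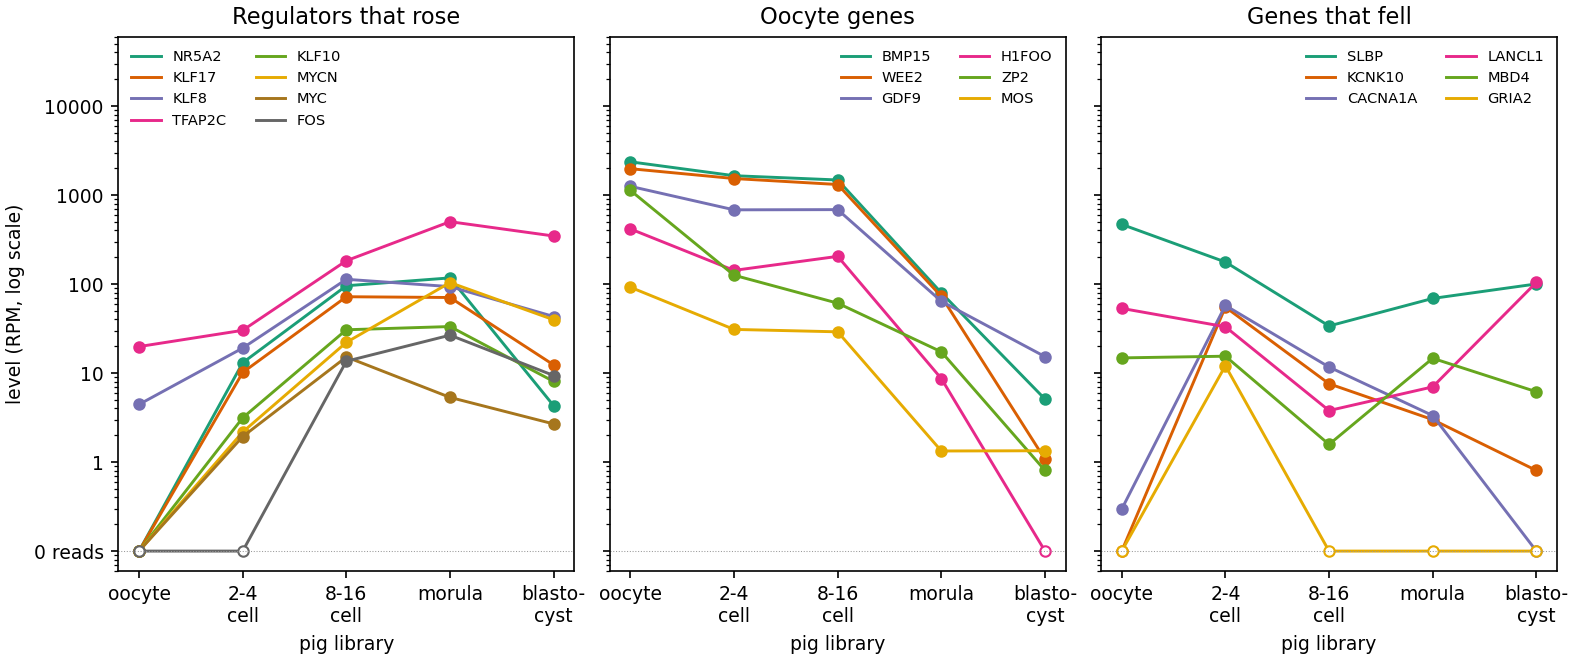
Level of 20 genes in the 5 pig libraries (x axis) as RPM on a log axis (y axis), in 3 panels: regulators that rose, genes of the oocyte, and genes that fell; filled circles are measured levels and open circles on the lowest tick mark 0 reads. The regulators climb between the 2-4 and the 8-16 cell library. The oocyte genes are lower in the morula than in either of these libraries, and KCNK10, CACNA1A and GRIA2 are highest at the 2-4 cell stage.

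Shares of risen genes among RNA processing lists lay around the 4.33% of all genes. Of 76 genes of pre-mRNA splicing, 6 rose (7.89%) and 0 fell, with a median change of 0.53. CLK1, a kinase that phosphorylates SR proteins, rose from 11.4 to 75.8 RPM, and the SR protein genes SRSF5, SRSF6 and SRSF7 from 14.5 to 81.5, from 7.73 to 52.7 and from 6.52 to 41.1 RPM. The helicase DHX15 (58.5 to 251 RPM) and the U5 component EFTUD2 (3.14 to 18.6 RPM) completed the 6. Of 68 genes of RNA polymerase II and its general factors, 2 rose (2.94%) and 0 fell (median 0.34): the elongation factor subunit SUPT4H1 (6.77 to 50.2 RPM) and the polymerase subunit POLR2F (3.14 to 25.3 RPM), whose span overlaps SOX10. Of 66 genes of mRNA storage and decay, 3 rose (4.55%) and 0 fell (median 0.23). The antiproliferative gene BTG1 (12.6 to 63.2 RPM) and the exosome subunit EXOSC3 (3.38 to 19.3 RPM) were among them.

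Among 82 chromatin modifiers 2 rose (2.44%, against 4.33% of all genes) and 1 fell (1.22%, against 0.543%). The median change was 0.30, against 0.21 over all genes. EED (chromosome 9, 20123509 to 20158743), the histone-binding subunit of Polycomb repressive complex 2, had 0, 7.01, 84.0, 292 and 76.4 RPM over the 5 stages, with a ratio of 11.99 (8.16 to 18.3). It was unread in the oocyte and highest in the morula. MBD4 (chromosome 13, 68814823 to 68828964), a glycosylase that removes thymine mispaired at CpG sites and whose span overlaps IFT122, had 14.8, 15.5, 1.58, 14.7 and 6.17 RPM. It was lowest at the 8-16 cell stage, with a ratio of 9.79 (3.98 to 31.2) in favour of the 2-4 cell stage. The maintenance DNA methyltransferase DNMT1 was at 34449, 11849, 9853, 362 and 30.0 RPM, so most of its decline lay outside this step, and its change here was -0.27. UHRF2 was at 6751 and then 4835 RPM, and DNMT3B at 414 and then 282 RPM.

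Of 23 histone and histone-related genes, 1 rose (4.35%, against 4.33% of all genes) and 1 fell (against 0.543%). The median change was 0.20, against 0.21 over all genes. The histone variant gene H2AFZ (chromosome 8, 120563937 to 120567333) had 20.7, 10.6, 102, 268 and 171 RPM, a ratio of 9.63 (7.01 to 13.5). SLBP (chromosome 8, 802940 to 818217), whose protein binds the stem-loop of histone mRNAs, had 468, 177, 33.8, 68.9 and 100 RPM. It fell 5.23-fold (4.27 to 6.47), was lowest at the 8-16 cell stage, and was the only one of the 66 fallen genes above 100 RPM at the 2-4 cell stage. The linker histone of the oocyte, H1FOO, was at 142 and then 205 RPM.

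Few transcripts typical of the oocyte passed the threshold across the step. Of 29 oocyte and maternal-effect genes compared, 1 rose (3.45%, against 4.33% of all genes) and 0 fell (against 0.543%). A list of 29 genes is too small to show fewer falls than 0.543%. The median change of the list was 0.01, against 0.21 over all genes. The growth factor gene BMP15 had 2361, 1648, 1476, 79.6 and 5.09 RPM over the 5 stages. GDF9 had 1252, 682, 686, 63.9 and 15.3 RPM, and the oocyte kinase WEE2 1976, 1532, 1313, 72.6 and 1.07 RPM. These 3 genes differed little between both libraries of the step and were far lower in the morula. The zona pellucida gene ZP2 was an exception within the list, with 1128, 126, 61.0, 17.3 and 0.804 RPM and a change of -1.03. ZP3, of the same coat, was at 3.62 and then 16.4 RPM, a change of 1.91, after 127 RPM in the oocyte; both zona genes were singled out after their values had been seen. The member that rose was TCL1A, from 1 read (0.242 RPM) to 4.11 RPM.

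A wider set held the 1264 genes with at least 50 RPM in the oocyte that were lower by 2 or more in the blastocyst, which uses neither library of the step. Of these, 0 rose and 1 fell, SLBP. Genes with a high oocyte level seldom passed the threshold: of 1924 genes over 100 RPM in the oocyte, 0 rose and 1 fell. The count of falls is therefore not set against all genes. The median change of the 1264 was -0.17, against 0.21 over all genes, with quartiles of -0.44 and 0.12. Of the 1264, 426 had a change above 0, where 61.2% of all genes did. By 1 or more, 39 were lower and 11 higher. The median level of the set over the 5 stages was 155, 122, 110.4, 36.6 and 10.7 RPM. Among the largest losses in RPM were genes of this kind: the replication clamp PCNA (4190 to 2888 RPM), the corepressor SIN3A (5109 to 3878 RPM) and the ubiquitin protease USP7 (1577 to 700.2 RPM). None of these reached a change of -2; that of USP7 was -1.17.

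A further set held the 992 genes that were higher by 2 or more in the blastocyst than in the oocyte and reached 10 RPM there. Of these, 608 reached 1 RPM in a library of the step, and 97 rose and 3 fell (TCF4, RNF125 and UBTD1; RNF125 falls outside the rule for named genes). Many genes of this set were low before the step and could enter the comparison only through their 8-16 cell level, so nothing is read from their share. The median level of the 608 over the 5 stages was 0.296, 1.45, 3.16, 10.99 and 26.5 RPM. By oocyte level, 169 of the 526 risen genes had 0 reads in the oocyte, 87 had reads up to 1 RPM, 187 had 1 to 10 RPM, 83 had 10 to 100 RPM and 0 had more. The 1 RPM rule favours rises among genes low in the oocyte in the same way, and a gene with a high level has to gain more reads to reach a 4-fold difference.

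Most risen genes were also higher in the morula and the blastocyst than in the oocyte. From the oocyte to the morula, a comparison without either library of the step, 386 of the 526 risen genes were higher by 2 or more (73.4%), where 19% of all 12153 genes were, and 3 were lower, where 13.9% were. From the oocyte to the blastocyst 302 were higher (57.4% against 20.6%) and 8 lower (against 19.7%). The median change over these intervals was 3.30 and 2.51, against 0.07 and -0.03 over all genes. Risen genes were more often under 1 RPM in the oocyte (48.7%, against 20.1% of all genes). The values over all genes are not matched for this, so nothing is read from the gap. Counting 1 row per symbol, 32 of 425 risen symbols had 0 reads in the oocyte and at least 10 RPM in both the morula and the blastocyst, SLC6A8, PDXK and EED among them.

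Smaller sets of risen genes were transient. 30 of the 425 had at least 10 RPM in the morula and under 1 RPM in the blastocyst. Among these, ZNF804A, a zinc finger gene, had 0, 0, 19.6, 10.7 and 0 RPM, and the fatty acid binding protein gene FABP5 2.66, 0, 11.05, 72.6 and 0 RPM. EFHD1, whose span overlaps KCNJ13, had 0, 0, 17.1, 83.6 and 0 RPM. A further 23 were under 1 RPM in the oocyte, the morula and the blastocyst. The prolyl hydroxylase gene P3H2 had 58 reads (18.3 RPM) at the 8-16 cell stage, 2 reads at the 2-4 cell stage and 0 in the other 3 libraries. The interferon gamma receptor chain IFNGR2 had 24 reads (7.58 RPM) at the 8-16 cell stage and 0 reads in the other 4. At the other end, 68 of the 425 already had 10 RPM or more in the oocyte, RPL19 and TPT1 among them.

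The 66 genes that fell were few and mostly low. Their median level over the 5 stages was 0.888, 7.01, 0.316, 2.66 and 1.61 RPM. 15 had 0 reads and 29 had 1 to 3 reads in the 8-16 cell library. 47 carried a symbol, and of these 24 had under 1 RPM in the oocyte and 7 had 10 RPM or more. The median level of the 66 was thus highest in the 2-4 cell library, which the rule for a fall favours by construction.

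The largest fall was that of GRIA2 (chromosome 8, 46078117 to 46241914), a glutamate receptor subunit, with 50 reads (12.1 RPM) at the 2-4 cell stage and 0 reads in the other 4 libraries. It was at least 12.75-fold lower in the 8-16 cell library. The potassium channel gene KCNK10 (chromosome 7, 110121263 to 110271481) had 0, 55.1, 7.58, 2.997 and 0.804 RPM, and fell 7.27-fold (4.76 to 11.6). The calcium channel gene CACNA1A had 0.296, 57.5, 11.7, 3.33 and 0 RPM and fell 4.92-fold (3.47 to 7.16). These 3 ion channel genes had their highest level in the 2-4 cell library and at most 1 read in the oocyte. The transcription cofactor LDB2 had 0, 20.3, 2.53, 0 and 0.268 RPM, and the histone H3 gene HIST2H3PS2, which overlaps HIST2H4A, 0.296, 21.99, 2.53, 2.66 and 0 RPM.

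Other fallen genes had been present in the oocyte or came back later. LANCL1 (chromosome 15, 113111368 to 113149061), a glutathione-binding protein, had 53.3, 33.1, 3.79, 6.99 and 105 RPM and fell 8.73-fold (4.84 to 17.3). AIFM1, a mitochondrial flavoprotein with a role in cell death, had 8.88, 12.8, 0.632, 15.3 and 40.2 RPM. MAP2K5, a kinase of the ERK5 pathway, had 6.22, 22.2, 2.84, 19.98 and 37.8 RPM. All 3 were lowest at the 8-16 cell stage, and 12 of the 47 fallen symbols had at least 10 RPM in the blastocyst. USP13, whose span overlaps SNORA81, had 43.2, 47.6, 9.79, 0.666 and 6.70 RPM and did not recover. From the oocyte to the morula 10 of the 66 were higher and 7 lower, and from the oocyte to the blastocyst 13 and 6.

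The remaining lists held at most 3 risen genes each, apart from zinc finger genes with 7, and are read against the 4.33% of all genes that rose. In the p53 pathway and apoptosis, 3 of 33 rose (9.09%) and 0 fell (median 0.65): MDM2, the ubiquitin ligase of p53, from 5.07 to 27.2 RPM, and BAD and BAK1 of the BCL2 family. In glycolysis and pyruvate metabolism, 2 of 26 rose (7.69%) and 0 fell (0.37): PGAM1, from 2.42 to 32.5 RPM, and HK1. In antioxidant defence, 3 of 29 rose (10.3%) and 0 fell (0.13): PRDX6 (1.45 to 16.4 RPM), PRDX4 and GLRX3. Among signalling ligands, receptors and feedback genes, 3 of 71 rose (4.23%) and 0 fell (0.10): the phosphatase DUSP1, from 0 reads to 6.32 RPM, the ERK inhibitor SPRY4 and the WNT receptor FZD7.

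Of 33 genes of cell junctions and compaction, 1 rose (3.03%) and 0 fell (0.02). TJP1 and CTNNB1, of tight and adherens junctions, were at 612 and then 333 RPM and at 328 and then 223 RPM. Of 58 cell cycle genes 1 rose (1.72%) and 0 fell (-0.02), the kinase PLK2 (2.66 to 14.8 RPM), and of 50 heat shock proteins and chaperones 1 rose and 0 fell (0.09), TRAP1 of mitochondria (1.69 to 13.6 RPM). Of 32 proteasome genes none rose or fell (0.58). Of 31 imprinted genes 2 rose and 1 fell (0.16): the paraoxonase genes PON3 and PON2, from 0.483 to 9.79 and from 0.242 to 5.37 RPM, and WT1, from 5.32 to 0.316 RPM. Of 264 zinc finger genes 7 rose (2.65%) and 2 fell (0.09). Of 10 cumulus and granulosa cell markers 1 rose and 0 fell (0.69), AMHR2 (0.725 to 8.21 RPM, and 24.98 RPM in the morula), and of 4 sperm markers 0 rose and 1 fell (-0.34), AKAP4, whose span overlaps CCNB3. The medians of the lists for antioxidant defence, signalling, junctions, chaperones, zinc fingers, solute carriers, mitochondrial ribosomal proteins and oocyte genes changed sign with quantile normalisation, so no direction is given for them.

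Counts and medians within lists moved with the setting. With a pseudocount of 5 RPM, 4 of the 38 activation regulators, 1 of the 102 genes of ribosome biogenesis, 3 of the 36 translation factors and 0 of the 36 respiratory chain genes rose, beside 102 of all genes. Quantile normalisation gave medians of 0.36 for the respiratory chain (2 risen), 0.35 for mitochondrial import, 0.41 for ribosome biogenesis, 0.16 for the proteasome, 0.29 for splicing, 0.15 for RNA polymerase II, 0.14 for storage and decay (0 risen), 0.27 for pluripotency factors, 0.10 for chromatin modifiers, 0.17 for glycolysis and 0.12 for the p53 pathway (0 risen). The p53 median was 0.16 with a minimum of 5 RPM. With genes at 0 reads placed at the floor, the list median was 2.12 for ribosomal proteins, 0.58 for the respiratory chain, 0.39 for the p53 pathway and -0.05 for sperm markers, and the other medians moved by less than 0.05.

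**Figure D4:**
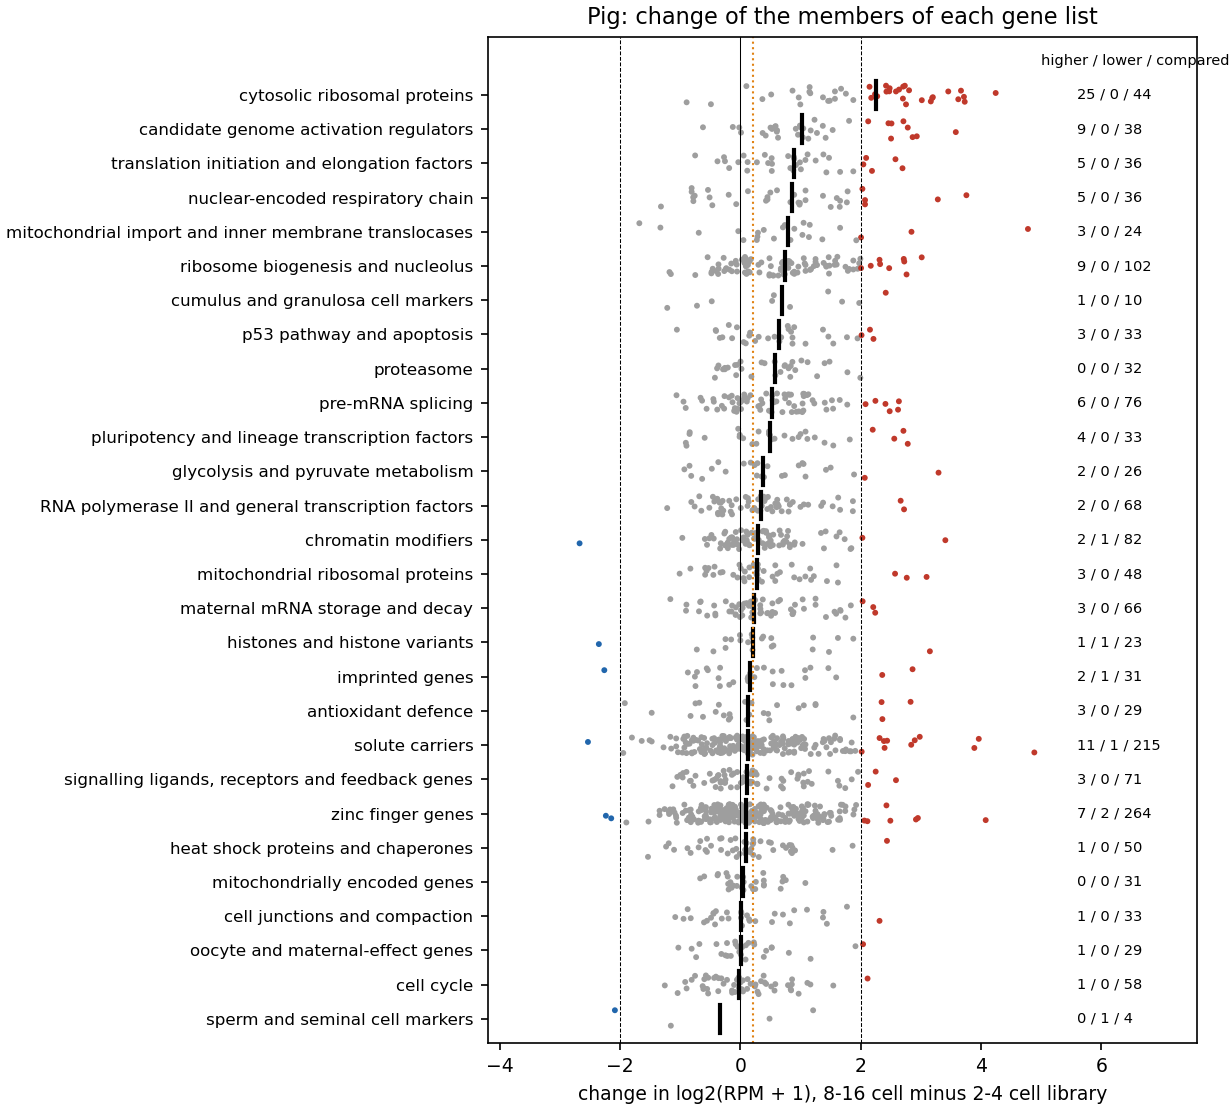
Change of each list member compared, as the difference of log2(RPM + 1) between the 8-16 and the 2-4 cell library (x axis), by gene list (y axis), with red points for risen and blue for fallen genes, black bars for list medians, dashed lines at the threshold of 2 and a dotted line at the median over all genes, 0.21. Ribosomal protein genes have a median of 2.26 and candidate genome activation regulators 1.02, while the oocyte list lies at 0.01.

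2 structural features of the gene rows were set against the calls. Rises were more frequent among short genes: 7.06% of 779 genes with a span under 5 kb rose, 5.51% of 1780 genes from 10 to 20 kb and 3.13% of 2813 genes over 100 kb. The median span was 25.8 kb for risen genes, 34.8 kb for fallen genes and 39.7 kb for all genes. Overlap with another row, where reads may not be separable, applied to 29.5% of risen, 33.3% of fallen and 33.6% of all genes. Besides the overlaps given above, this held for ETF1 (with EGR1), NOP2 (GAPDH), PPAN (EIF3G), NDUFB2 (BRAF), NDUFA13 (TSSK6), SRSF5 (SLC10A1), EIF3A (FAM45A), EIF3I (TMEM234), TRAP1 (DNASE1), EXOSC3 (TRMT10B), BAK1 (ITPR3), BAD (GPR137), URB1 (MRAP), TSR2 (FGD1), MRTO4 (EMC1), MRPS18A (RSPH9), MRPS18C (HELQ), RPL5 (EVI5), RPL15 (NKIRAS1), GDF9 (UQCRQ), PCNA (CDS2), STAR (ASH2L) and ZP2 (TMEM159).

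By chromosome, the share of genes that rose lay between 2.36% and 6.07% on the autosomes and was 5.19% on the X chromosome. Rows of the Y chromosome, which were singled out after their values had been seen, stood apart with 6 of 14 genes risen and 0 fallen. 26 Y rows had 0 reads in the oocyte, and their summed level over the 5 stages was 0, 10.9, 87.5, 501 and 624 RPM. UTY, a histone demethylase gene of the Y chromosome, had 0, 2.17, 13.6, 27.3 and 33.8 RPM over the 5 stages, and DDX3Y, an RNA helicase gene, 0, 0, 2.53, 143 and 126 RPM. The 6 Y rows that did have oocyte reads summed to 14.3 RPM at the 2-4 cell stage and 19.3 RPM at the 8-16 cell stage. A library with more male embryos and a higher level per embryo cannot be told apart.

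The same-named step in the cow was set beside the pig values, within its own table and by gene symbol, over the 8196 symbols compared in both species. Cow values did not enter the calls in the pig, but some genes named here were picked by their cow pattern. In the cow 12.2% of these symbols were higher by 2 or more and 15.1% lower, and the median change was -0.48. Of 326 risen pig symbols, 107 were higher in the cow (32.8%) and 18 lower (5.52%), and their median cow change was 1.04. Those 107 were 10.7% of the cow symbols that were higher. Of 34 fallen pig symbols 6 were lower and 4 higher in the cow, and their median there was 0.16.

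The groups that rose in the pig were partly high in the cow as well. Of 41 cytosolic ribosomal protein genes compared in the cow, 19 were higher and 0 lower (median 1.68), and of 31 candidate activation regulators 15 were higher and 1 lower (1.80). Among single genes, SLC34A2 changed by 4.89 in the pig and 6.27 in the cow, ETNPPL by 4.00 and 6.86, RACK1 by 4.65 and 3.98, H2AFZ by 3.15 and 8.73, EED by 3.41 and 4.59, and TFAP2C by 2.56 and 7.597. CPT1A (4.53 and 0.38) and RPL19 (4.25 and 0.51) rose past the threshold in the pig only among these 2 tables. Among the 28 lists, the oocyte list had the largest gap between its median in the pig and in the cow. Of 25 compared in the cow, 22 were lower and 0 higher and the median was -2.88, where the pig list had 0 lower of 29 and a median of 0.01. BMP15 changed by -0.16 in the pig and -1.79 in the cow, WEE2 by -0.22 and -3.38, and DNMT1 by -0.27 and -3.25. With 1 library per stage and species, these differences between species were not tested.

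**Figure D5:**
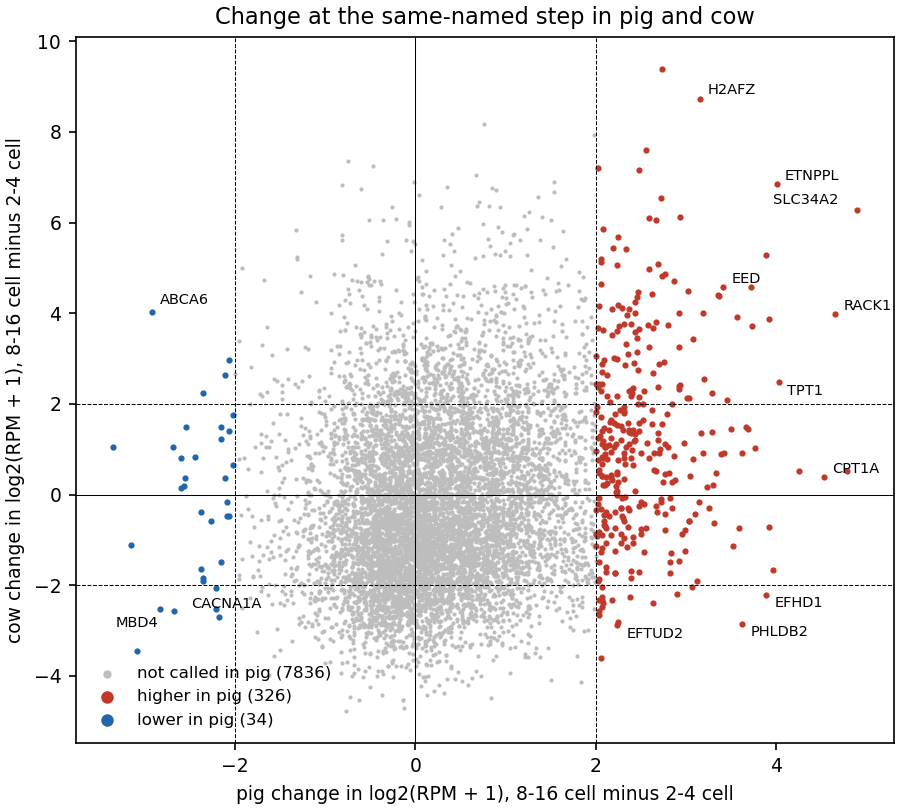
Change at the 2-4 to 8-16 cell step in the pig (x axis) and in the cow (y axis), both as differences of log2(RPM + 1), for the 8196 symbols compared in both species, with dashed lines at the threshold of 2. Of the 326 risen pig symbols (red) 107 lie above 2 and 18 below -2 on the cow axis, and of the 34 fallen ones (blue) 4 and 6.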

How the data were processed

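Total RNA was isolated with a kit for very small samples, amplified as cDNA from low input and turned into sequencing libraries with 8 PCR cycles, per the labels' protocols. The submitters' processing notes name Trim Galore 0.6.4, HISAT2 2.1.0 and the builds Sscrofa11.1 (pig) and UMD3.1 without giving their roles; counting, strand and duplicate handling are not given in the sources used here, and positions are those of the deposited table. The authors deposited log2 values, 1 column per stage. Nearly all values are whole multiples of 1 read (within 0.01 read: 99.95% at 2-4 cells, 99.98% at 8-16 cells) and the lowest stands at 0.9 read, so they are log2 RPM, not divided by length. They were converted back to RPM with Python 3.11 and compared as log2(RPM + 1), keeping rows with 1 RPM in either library. Intervals are exact (95%). Folds against 0 reads use a floor of 3 reads. Named genes were the largest changes, gains, losses and levels, list members called or highest, and called genes of each cow or stage pattern. The members and the 28 lists were chosen with earlier results of these data known. The script was tested on simulated data. Other pseudocounts, minima, thresholds and scalings were tried as alternatives. The planned promoter comparison was not run, since no pig sequence was used here. Some genes are not reported here.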

Additional observations from a re-analysis of the deposited data

Results flagged for a closer look

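Over all symbols compared in both species, 18 of the 326 that rose in the pig were lower in the cow (5.52%, against 15.1% of all symbols). Of the 34 that fell, 4 were higher in the cow (11.8%, against 12.2% of all symbols). Neither share was above that of all symbols, so the genes below are listed singly and not as a pattern. 16 of the named genes, some of them named for this pattern, passed the threshold of 2 in opposite directions in the pig and the cow at the step from 2-4 to 8-16 cells. Each value rests on 1 library per stage and species, and the difference between species was not tested. The values are differences of log2(RPM + 1), 8-16 cell minus 2-4 cell.

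12 of the named genes rose in the pig and were lower in the cow. EFHD1, a calcium-binding mitochondrial protein gene, changed by 3.89 in the pig and -2.20 in the cow, and PHLDB2, a microtubule-anchoring gene, by 3.62 and -2.85. The sodium-calcium exchanger SLC8A2 changed by 2.90 and -2.20, TLCD1 by 2.63 and -2.40, and the potassium channel gene KCNH8 by 2.38 and -2.25. EFTUD2, of the U5 spliceosome particle, changed by 2.25 and -2.80, the secreted glycoprotein gene DKK3 by 2.23 and -2.87, PRELID2 by 2.18 and -2.32, and the calpain gene CAPN13 by 2.08 and -2.38. ATP5A1 of the ATP synthase changed by 2.07 and -2.26, hexokinase HK1 by 2.07 and -2.32, and TCL1A by 2.04 and -2.66.

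4 genes fell in the pig and were higher in the cow. UBTD1 changed by -2.06 and 2.98, the growth factor gene HGF by -2.11 and 2.63, the receptor gene CD40 by -2.35 and 2.24, and the lipid transporter gene ABCA6 by -2.92 and 4.03. CD40 and ABCA6 had 0 reads in the pig 8-16 cell library after 23 and 36 reads, and HGF 2 after 25. The span of CD40 overlaps TP53RK, that of UBTD1 overlaps MMS19 and that of EFHD1 overlaps KCNJ13, so their reads may not be separable.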

How the results depend on the processing

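No paired analysis was possible because each group had 1 library; leaving out a replicate was impossible for the same reason. Rises outnumbered falls under every alternative run. 0 of the 526 risen genes came to or below 0 and 0 of the 66 fallen ones to or above 0. This is no check of stability, because a pseudocount, minimum or threshold cannot turn the sign of a change. The rescalings shifted the median change by only -0.22 to 0.04, little beside a change of 2. The counts moved with the scale. A pseudocount of 0.1 RPM gave 1782 changed genes, 1439 higher and 343 lower (80.8% higher), and one of 5 RPM gave 105, 102 and 3 (97.1%). A threshold of 1 gave 3086 changed genes, 2454 higher and 632 lower (79.5%), and a threshold of 3 gave 89, 86 and 3 (96.6%). By construction a stricter threshold counts a subset and a larger pseudocount draws every change toward 0. Quantile normalisation gave 294 higher and 153 lower (65.8%) with a median change of -0.053. Centring on the median, added after seeing the data, gave 105 lower and 77.8% higher with a median of 0. Other settings kept the counts within 1.5 times: median scaling gave 492 higher and 70 lower, reads outside the mitochondrial genome 706 and 96, equal depth 556 and 72, a minimum of 5 RPM 480 and 53, symbols only 425 and 47, and 0 RPM for 0 reads, also added later, 586 and 88. Of the 526 risen genes 97 had 0 reads at the 2-4 cell stage, where up to 0.725 RPM cannot be seen.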
